A study of Mus musculus with 9 samples.

Results

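Transcripts of 8 chemokine receptors of monocytes, Ccr1, Ccr2, Ccr7, Ccrl2, Cx3cr1, Cxcr2, Cxcr3 and Cxcr4, were followed in sorted monocytes of blood and brain on the first day of a neuromyelitis optica (NMO) like lesion of the mouse. They were taken by name out of 23238 gene symbols with counts listed, with earlier results of these data known. Some are better known from other leukocytes than from monocytes. Of the 8, 6 had enough reads to be tested, among 10107 genes tested in all.

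Female wild-type C57BL/6N mice, 12 weeks old, supplied 3 groups of cells. Nor_Bl_mono was made of blood monocytes from untreated mice. NMO_Bl_mono and NMO_Br_mono were blood and brain monocytes of mice that had received IgG of NMO patients together with human complement into the striatum of 1 side, and were taken 1 day later. Each group had 3 libraries, described as independent, and each library held the cells of a pool of 5 mice, sorted as CD45+, CD11b+, P2ry12-, Ly6C+ and Ly6G-. No brain monocytes of untreated mice and no mice injected with control IgG were among these libraries, so brain against blood and injected against untreated were compared with that limit. The values are reads counted from the 3′ end of transcripts and scaled with TMM factors to CPM, which relate the reads of a gene to the total of its library. A 3′ library yields about the same number of reads from a short as from a long transcript, so CPM were not divided by length.

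Chemokine receptors are receptors with 7 membrane-spanning helices that couple to Gi proteins and steer leukocytes along gradients of their ligands. In mice, Ccr2 marks classical, Ly6C high monocytes and governs their exit from bone marrow and their entry into inflamed tissue, whereas Cx3cr1, the receptor of fractalkine, is higher in non-classical monocytes and in microglia. Ccr1 binds Ccl3, Ccl5 and related chemokines, Cxcr4 binds Cxcl12 and retains cells in bone marrow, and Ccr7 leads dendritic cells and lymphocytes to lymph nodes. Cxcr2 is the main chemokine receptor of neutrophils, Cxcr3 that of activated T and NK cells, and Ccrl2 is an atypical receptor that binds chemerin without signalling on its own.

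Of the 8 genes, 4 lie on mouse chromosome 9 in GENCODE M21 (GRCm38). Ccr1 (chr9:123962124-123968692, minus strand) and Ccr2 (chr9:124101950-124113557, plus strand) are neighbours among the members, with 133.3 kb between them, while Ccrl2 (chr9:111054486-111057519) and Cx3cr1 (chr9:119901616-120069879) lie farther off on the minus strand. Cxcr2 (chr1:74153989-74161246) and Cxcr4 (chr1:128588199-128592293) are on chromosome 1, Ccr7 (chr11:99144196-99155077) is on chromosome 11 and Cxcr3 (chrX:101731535-101734269) is on the X chromosome. The annotated span of Cx3cr1 includes a long transcript and overlaps 9 other genes, and no other member overlaps a gene in that annotation. Reads that align to several places were counted by the authors, so shared 3′ sequence matters. The last 500 bases of the coding transcripts matched a transcript of another gene over at least 75 bases at 90% identity for Cx3cr1 (1 gene, Pigv) and for Cxcr2 (6 genes), and for 0 of the other 6 members.

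The 250 bases before the RefSeq start of transcription (GRCm38.p6) are shown for Ccr1, the tested receptor with the largest fitted excess in brain monocytes, and for Cxcr4, the receptor whose means were closest between the groups. Both windows are on the minus strand, at chr9:123968693-123968942 and chr1:128592300-128592549, and neither overlaps an annotated exon of the 8 genes. Capitals mark GGAA on either strand, the core that factors of the ETS family, PU.1 among them, bind.
Ccr1: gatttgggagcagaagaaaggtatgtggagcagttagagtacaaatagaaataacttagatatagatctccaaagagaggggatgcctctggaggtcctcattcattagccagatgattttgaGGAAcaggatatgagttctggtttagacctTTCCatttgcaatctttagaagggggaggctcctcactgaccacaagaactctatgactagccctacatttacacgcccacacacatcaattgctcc
Cxcr4: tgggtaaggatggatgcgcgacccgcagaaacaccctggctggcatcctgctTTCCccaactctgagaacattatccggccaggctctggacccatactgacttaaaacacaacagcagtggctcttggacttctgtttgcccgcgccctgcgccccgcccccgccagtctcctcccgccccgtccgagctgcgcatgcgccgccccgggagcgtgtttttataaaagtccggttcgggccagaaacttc
The core occurred in the windows of all 7 members with an entry, but 93.4% of 32851 mouse promoter windows of that length hold it. The longer PU.1 motif GAGGAAGT, which contains the core, was found for Cxcr3 alone (2.44% of all windows), and the hypoxia motif ACGTG for Ccrl2 alone (16.6%). Searched on both strands, the motifs TGANTCA for AP-1, GGG and TTTCC with any 2 bases between them for NF-kB, GAAA repeated after any 2 bases for IRF and TTGCNNAA for C/EBP occurred in 0 of the 7, against 6.75%, 1.41%, 2.98% and 9.56% of all windows. The Ccr1 and Cxcr4 windows thus held none of these motifs but the core, and differed in base composition, with 43.6% and 61.2% G or C.

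The libraries held between 7584649 and 10419647 counts, and 3 counts, taken as the floor, correspond to 0.271 to 0.429 CPM. Among genes that reached 50 CPM in both other libraries of their group, 22.2% were at or under this floor in NMO_Bl_mono replicate 3, 8.28% in NMO_Br_mono replicate 2 and at most 1.94% in the rest. Cx3cr1 and Cxcr4 were among these genes in NMO_Bl_mono replicate 3. Ccr1, Ccr7, Cxcr2 and Cxcr3, which stayed under 50 CPM in the other libraries of the group, were also at or under the floor there. The fold changes of the receptors against NMO_Bl_mono are therefore also given without NMO_Bl_mono replicate 3. Sorting markers were checked, and 3 of them differed between brain and blood without overlap. Itgam (CD11b) was 413 to 649 CPM in brain against 297 to 389 CPM in the 6 blood libraries. Ptprc (CD45) was 463 to 1004 CPM in brain against 1143 to 1882 CPM in blood. Ly6c2 was 435, 59.1 and 198 CPM in brain against 460 to 928 CPM in blood. The cause of these differences was not tested.

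In brain monocytes, Ccr2, Ccr1 and Cx3cr1 transcripts were each higher in all 3 libraries than in all 3 blood libraries of NMO mice, and Ccr7 had 0 reads. None of the 6 tested receptors passed edgeR's quasi-likelihood test after Benjamini-Hochberg adjustment over all genes, in any comparison. The test called 0.247% of all genes between NMO_Br_mono and NMO_Bl_mono. At an unadjusted p under 0.05 it called 1 receptor (Ccr1) and 5.32% of all genes. The 3 receptors with no overlap between the groups, of 8, stand beside 6.3% of all tested genes that were higher in every brain library. The median log2 fold change of the 6 receptors was 0.67, and that of all tested genes 0.05. These comparisons with all genes are descriptions only, since the members were chosen with earlier results of these data known. The 8 receptors together reached 1758 ± 423 CPM in brain, where 2 of 3 libraries exceeded the highest blood library. They reached 829 ± 623 CPM in the blood of NMO mice and 770.5 ± 327 CPM in normal blood (SD, n = 3 each). In bulk libraries, fewer cells of a type and less RNA per cell cannot be told apart.

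**Figure D1:**
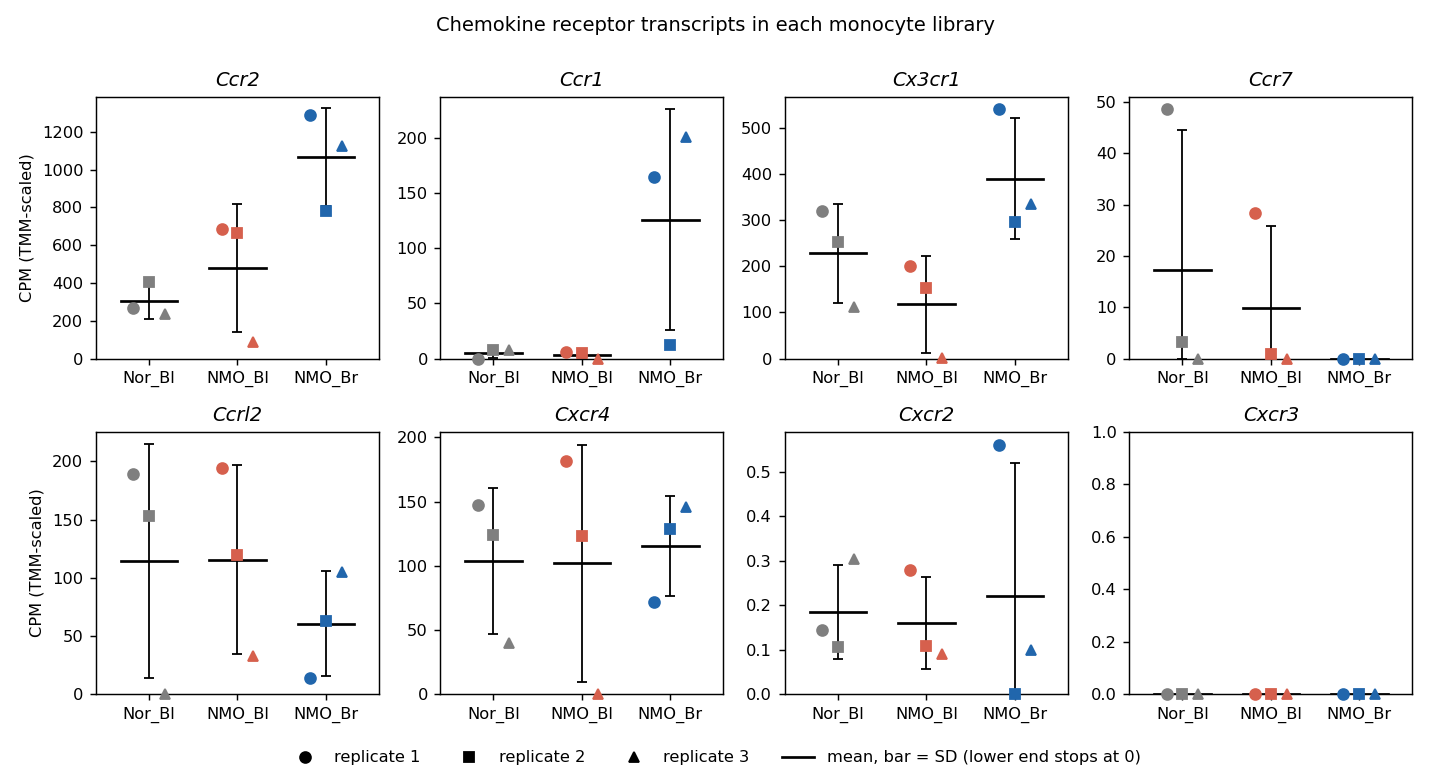
Level of each of the 8 receptors in CPM (vertical axis, linear, its own scale in each panel) in the 3 libraries of Nor_Bl_mono, NMO_Bl_mono and NMO_Br_mono. Points are libraries with the replicate number as shape, lines are means and bars are SD. The 3 brain libraries lie above the NMO blood libraries for Ccr2, Ccr1 and Cx3cr1, Ccr7 is at 0 in brain, and Cxcr3 is at 0 throughout.

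Ccr2, the receptor of Ccl2, Ccl7 and Ccl12, was the most abundant of the 8 in each group. It was 266, 407 and 234 CPM in Nor_Bl_mono, 687, 664 and 89.3 CPM in NMO_Bl_mono, and 1289.8, 781 and 1126 CPM in NMO_Br_mono. All 3 brain libraries lay above all 6 blood libraries, while the 2 blood groups overlapped because NMO_Bl_mono replicate 3 lay below every normal library. Against NMO_Bl_mono the log2 fold change was 1.15 (SE 0.58, 95% interval -0.09 to 2.39, adjusted p = 0.802). Without NMO_Bl_mono replicate 3 it was 0.67 (SE 0.35). Against Nor_Bl_mono it was 1.82 (SE 0.59, interval 0.56 to 3.08), with an unadjusted p of 0.00789 from edgeR and an adjusted p of 0.566. This difference was called in 2 of 14 alternatives, without a filter on low counts and with limma-voom, and its adjusted p ranged from 0.00428 to 0.875 over them. In the contrast with both blood groups the log2 fold change was 1.48 (SE 0.47, interval 0.47 to 2.50, adjusted p = 0.402), called in 2 of 16 alternatives with adjusted p-values from 0.00287 to 0.744.

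Ccr1, the receptor of Ccl3, Ccl5, Ccl6, Ccl7 and Ccl9, was scarce in blood and present in each brain library. It was 0, 7.88 and 7.62 CPM in Nor_Bl_mono, 5.99, 4.87 and 0 CPM in NMO_Bl_mono, and 165, 12.2 and 201 CPM in NMO_Br_mono. The lowest brain library, replicate 2, held 129 reads and was still above each blood library, whereas the other 2 brain libraries held 1468 and 2035 reads. The log2 fold change was 5.12 against NMO_Bl_mono (SE 2.16, interval 0.48 to 9.76, adjusted p = 0.802), with an unadjusted p of 0.0328 from edgeR, and it was 4.55 (SE 1.87) without NMO_Bl_mono replicate 3. It was 4.60 against Nor_Bl_mono (SE 2.11, interval 0.08 to 9.13, adjusted p = 0.708). Against both blood groups it was 4.86 (SE 1.60, interval 1.43 to 8.30, adjusted p = 0.442), and it was called in 2 of 15 alternatives, with adjusted p-values from 0.0194 to 0.955. Of the receptors with reads in brain, Ccr1 had the largest fitted log2 fold change against each blood group, with a SE of more than 2 against either group alone.

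Cx3cr1, the fractalkine receptor, was the second most abundant of the 8 in each brain library. It was 319.8, 252 and 111 CPM in Nor_Bl_mono, 201, 152 and 0.0904 CPM in NMO_Bl_mono, and 541, 295 and 335 CPM in NMO_Br_mono. The brain libraries lay above all NMO blood libraries and overlapped the normal blood libraries, 1 of which was higher than the lowest brain library. Against NMO_Bl_mono the log2 fold change was 1.73 (SE 1.22, interval -0.90 to 4.35, adjusted p = 1). Without NMO_Bl_mono replicate 3, which held 1 read of Cx3cr1, it was 1.16. Against Nor_Bl_mono it was 0.78 (SE 1.20, interval -1.79 to 3.34, adjusted p = 1).

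Cx3cr1 is also a gene of microglia, which share the brain with the infiltrating cells, so microglia markers stand beside it. Their summed level was 467 to 616 CPM in NMO_Br_mono, 0 to 71.6 CPM in NMO_Bl_mono and 31.0 to 109 CPM in Nor_Bl_mono. Of the 10 markers, 7 were tested and 0 were called against NMO_Bl_mono. Fcrls was 52.4, 77.1 and 50.3 CPM in brain and 0 in all 6 blood libraries, and Olfml3, named after its values were seen, was 8.66, 33.0 and 18.1 CPM in brain and 0 in blood. P2ry12, which the sort excluded at the surface, was 23.6, 69.3 and 9.89 CPM in brain, 16.6, 0.866 and 0 CPM in NMO blood and 43.2, 34.8 and 0.914 CPM in normal blood. Border-associated macrophage markers summed to 141 to 297 CPM in brain and 84.0 to 170.1 CPM in the 6 blood libraries. Most of the blood sums came from Clec12a, with means of 96.7 CPM in Nor_Bl_mono, 115 CPM in NMO_Bl_mono and 76.0 CPM in NMO_Br_mono. Stab1 was 0 in blood and 0.0946 to 112 CPM in brain. Against NMO_Bl_mono, 4 of the 8 markers were tested, 0 were called, 3 lay above 0 and 1 below. The part of these cells in the level of Cx3cr1, or of any other receptor, was not tested.

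The ratio of Ccr2 to Cx3cr1, which separates the main monocyte subsets of blood, can be read within a library and so does not depend on scaling. It still depends on the cells a library holds. The paper's methods give the sort as Ly6C high, so the ratio is no count of subsets here. NK cell markers summed to 2290 to 3710 CPM in blood and 48.2 to 489.6 CPM in brain, microglia markers to 0 to 109 CPM and 467 to 616 CPM. The part of such cells in the ratio was not tested. Per read of Cx3cr1 there were 0.831, 1.61 and 2.11 reads of Ccr2 in Nor_Bl_mono, 3.42 and 4.37 in NMO_Bl_mono replicates 1 and 2, and 2.39, 2.65 and 3.36 in NMO_Br_mono. NMO_Bl_mono replicate 3 held 988 reads of Ccr2 and 1 read of Cx3cr1, and no ratio is given for it. The 5 libraries of NMO mice with a ratio had more Ccr2 per Cx3cr1 than the 3 libraries of normal mice, and the brain libraries lay between the normal libraries and NMO_Bl_mono replicates 1 and 2. No test was run on these ratios, which were compared after their values were seen. Ccr2 made up 43.3 ± 16.1% of the reads of the 8 receptors in Nor_Bl_mono, 62.9 ± 10.2% in NMO_Bl_mono and 60.6 ± 1.57% in NMO_Br_mono (SD, n = 3). Cx3cr1 made up 29.3 ± 3.27%, 9.94 ± 8.57% and 22.2 ± 4.30%, and Ccr1 0.923 ± 0.972%, 0.306 ± 0.265% and 6.47 ± 4.95%.

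**Figure D2:**
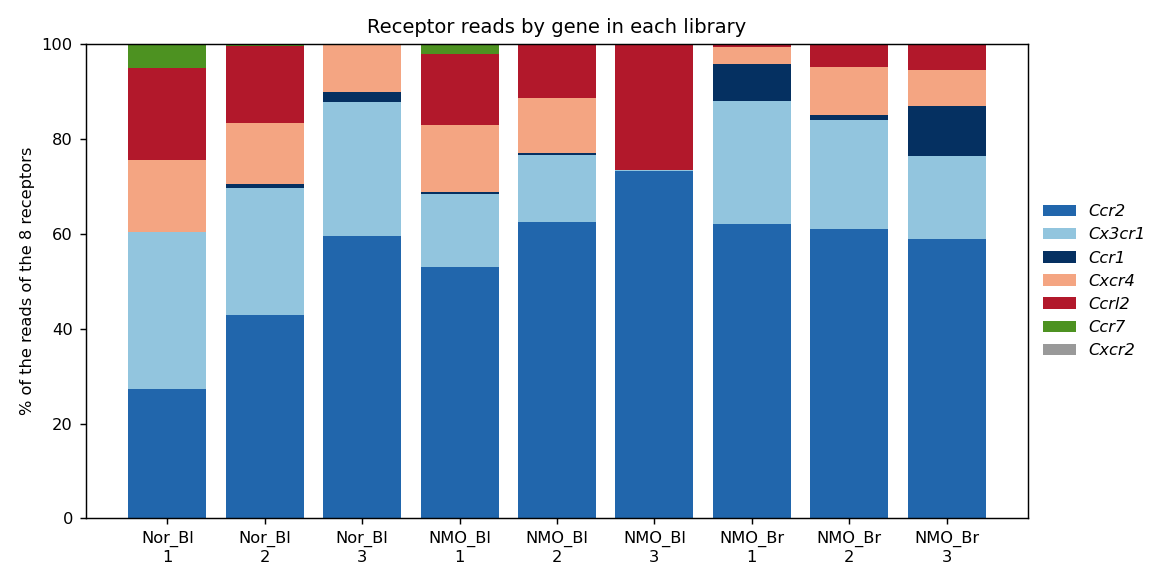
Share of the reads of the 8 receptors that fell on each gene (vertical axis, percent of receptor reads), as stacked bars for the 9 libraries, replicates 1 to 3 of each group from left to right. Ccr2 holds 58.9% to 62.0% of the receptor reads in the 3 brain libraries and 27.4% to 73.3% in the 6 blood libraries. The dark blue share of Ccr1 is visible mainly in NMO_Br_mono replicates 1 and 3.

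Ccr7, the receptor of Ccl19 and Ccl21, was found in blood libraries only, and mostly in replicate 1 of both groups. It was 48.6, 3.26 and 0 CPM in Nor_Bl_mono and 28.4, 0.866 and 0 CPM in NMO_Bl_mono, from 340, 31 and 0 and from 204, 8 and 0 reads. The 3 brain libraries held 0 reads, which allows up to 0.284 to 0.337 CPM in each at the floor of 3 counts. The groups overlapped at 0. Against the mean of NMO_Bl_mono the brain level was at least 31.9-fold lower, taking 3 counts per library as the floor (adjusted p = 0.802), and against Nor_Bl_mono at least 56.5-fold lower (adjusted p = 0.708). These bounds rest on replicate 1. Without it, NMO_Bl_mono would be left with 0.866 and 0 CPM, close to the floor, and Nor_Bl_mono with 3.26 and 0 CPM. The fitted log2 fold change against NMO_Bl_mono was -9.50, and -5.09 without NMO_Bl_mono replicate 1. Without NMO_Bl_mono replicate 3 it was -10.05. Such values, fitted against a brain group without reads, are no bound. B and T lymphocytes and dendritic cells are known to carry Ccr7. The sort was gated on CD11b and Ly6C, but how many of these cells passed it was not measured here. Of 8 B cell markers, 7 had an entry. In replicates 1 to 3 they summed to 110.1, 1.26 and 13.1 CPM in Nor_Bl_mono and 82.7, 35.1 and 0.0904 CPM in NMO_Bl_mono. In NMO_Br_mono they summed to 10.6, 37.6 and 45.1 CPM. Against NMO_Bl_mono 0 of 5 tested were called, 3 of them above 0 and 2 below, with a median log2 fold change of 0.03. Of these, named after their values were seen, Cd79a was 15.7, 1.16 and 0 CPM in normal blood, 20.8, 3.57 and 0 CPM in NMO blood and 0 in brain, whereas Cd79b reached 37.5 CPM and Ebf1 45.0 CPM in a brain library, and Pax5 was at 0 in all 9. T cell markers summed to 47.2 to 169.6 CPM in Nor_Bl_mono, 33.4 to 115 CPM in NMO_Bl_mono and 12.8 to 70.9 CPM in brain, and dendritic cell markers to 133 to 201 CPM, 9.31 to 149 CPM and 145 to 449 CPM. The part of B cells, T cells and dendritic cells in the level of Ccr7 was not tested.

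Ccrl2, the atypical receptor of chemerin that activated myeloid cells carry, had means of 114 CPM in Nor_Bl_mono, 115 CPM in NMO_Bl_mono and 60.4 CPM in NMO_Br_mono. It was 189, 153 and 0.102 CPM in Nor_Bl_mono, 194, 119 and 32.4 CPM in NMO_Bl_mono, and 13.9, 62.9 and 104 CPM in NMO_Br_mono. The 3 groups overlapped, and within Nor_Bl_mono alone the level ranged from 1 read to 189 CPM. The log2 fold change between brain and NMO blood was -0.93 (SE 1.40, interval -3.95 to 2.08, adjusted p = 1), so that a change of several-fold in either direction lies within the interval. Without NMO_Bl_mono replicate 3 it was -1.36 (SE 1.44).

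Cxcr4, the receptor of Cxcl12, had nearly the same mean in the 3 groups. It was 147, 124 and 39.7 CPM in Nor_Bl_mono, 182, 123 and 0 CPM in NMO_Bl_mono, and 71.7, 129 and 146 CPM in NMO_Br_mono. The brain libraries lay within the range of the NMO blood libraries. The log2 fold change of brain against NMO blood was 0.18 (SE 1.39, interval -2.80 to 3.17, adjusted p = 1), and its sign turned without NMO_Bl_mono replicate 3 (-0.39), where Cxcr4 had 0 reads. With an interval this wide, the groups cannot be called alike.

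Cxcr2, the neutrophil receptor of Cxcl1, Cxcl2 and Ppbp, was at or near the floor. It had 1, 1 and 3 reads in normal blood, 2, 1 and 1 in NMO blood and 5, 0 and 1 in brain, so that 1 of 9 libraries exceeded 3 counts. Neutrophil markers stand beside it. They summed to 512 to 2009 CPM in brain, 126 to 406 CPM in NMO blood and 111 to 340.0 CPM in normal blood, with 0 of 10 tested called against NMO_Bl_mono, 7 of them above 0 and 3 below. Without NMO_Bl_mono replicate 3, 1 was called lower. S100a8 was 147, 808 and 388 CPM in brain and at most 138 CPM in blood, whereas Retnlg was 0 in all 3 brain libraries and 124, 84.3 and 37.6 CPM in normal blood. The part of neutrophils in the level of Cxcr2 was not tested. Cxcr3, the receptor of Cxcl9, Cxcl10 and Cxcl11, had 0 reads in all 9 libraries, which allows up to 0.271 to 0.429 CPM. It was thus not detected at this depth in blood libraries whose NK cell markers summed to 2290 to 3710 CPM.

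Between the 2 blood groups no receptor passed the test. The test called 0% of all genes in NMO_Bl_mono against Nor_Bl_mono, with 72 genes (0.712%) at an unadjusted p under 0.05 and 69 genes called by DESeq2, and 0 receptors under any of these. All 8 receptors overlapped between the groups, while 6.8% of all tested genes did not overlap in one direction or the other. The log2 fold change of NMO over normal blood was 0.67 for Ccr2 (SE 0.57, interval -0.56 to 1.89), -0.95 for Cx3cr1 (SE 1.20, interval -3.53 to 1.62) and -0.52 for Ccr1 (SE 1.83). It was 0.02 for Ccrl2 (SE 1.39), -0.03 for Cxcr4 (SE 1.39) and -0.83 for Ccr7 (SE 3.31), each with an adjusted p of 1. Without NMO_Bl_mono replicate 3, Ccr2 stood at 1.16 and Cx3cr1 at -0.36 on the log2 scale.

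Against normal blood, brain monocytes showed 3 receptors at an unadjusted p under 0.05 (Ccr1 and Ccr2 higher, Ccr7 lower), beside 5.82% of all genes, and 0 after adjustment, beside 0.247%. Ccr1 and Ccr2 did not overlap between these groups, beside 6.07% of all genes higher without overlap. Against both blood groups the same 3 receptors had an unadjusted p under 0.05, beside 6.89% of all genes, and 0 were called after adjustment, beside 0.435%. Ccr1 and Ccr2 exceeded all 6 blood libraries in all 3 brain libraries, which 3.57% of all tested genes did. These comparisons share the brain libraries, and the contrast with both blood groups shares its blood libraries with the other 2, so their values are not independent of each other.

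**Figure D3:**
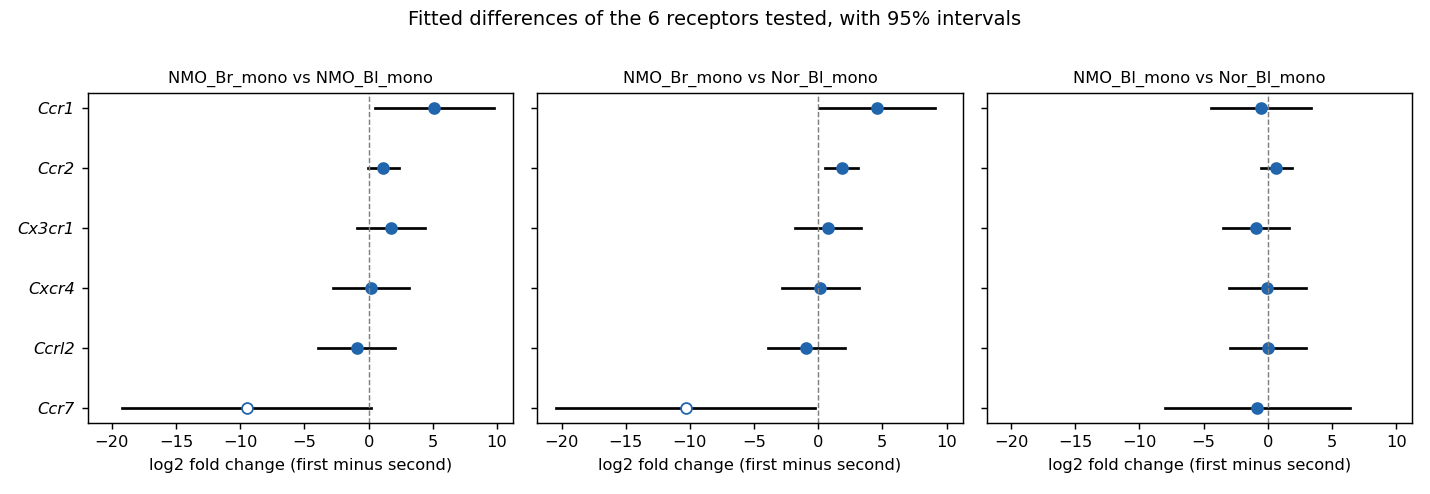
Fitted log2 fold change (horizontal axis, points) and its 95% interval (lines) for the 6 tested receptors in the comparisons of brain with NMO blood, brain with normal blood, and NMO blood with normal blood. Open circles mark fitted values of Ccr7 against a brain group without reads, which are no bound. The interval of Ccr2 is the narrowest in each panel, and it lies above 0 only for brain against normal blood.

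Over the 9 libraries, on the scale of log2(CPM + 1), Cx3cr1 and Cxcr4 had the most similar pattern among the 10 pairs of Ccr1, Ccr2, Ccrl2, Cx3cr1 and Cxcr4 (Pearson r = 0.95), followed by Ccr1 and Ccr2 (0.82), Ccr2 and Cx3cr1 (0.80) and Ccr2 and Cxcr4 (0.75). Ccr7, Cxcr2 and Cxcr3 had too few libraries with reads and were not correlated. Ccrl2 had r from -0.15 with Ccr1 to 0.36 with Cxcr4. These are descriptions of 9 points that share library, group and depth, and NMO_Bl_mono replicate 3, where Cx3cr1 and Cxcr4 had 1 and 0 reads, weighs on them. Of 2901 genes with a mean of at least 50 CPM, those most like Ccr2 were Por (r = 0.95), Sirpa (0.95) and Slfn4 (0.94), of which Sirpa encodes a receptor of the CD47 signal on myeloid cells. Those most like Ccr1 were Ms4a4c (0.91), the Fc receptor gene Fcgr3 (0.90) and Rps6 (0.90). Cx3cr1 was most like Sgk3 (1.00), Rnpep (0.99) and Mdh2 (0.99), Cxcr4 most like Rest (0.99), Ifrd1 (0.99) and Zcchc7 (0.99), and Ccrl2 most like Pik3cd (0.98), Hn1 (0.95) and Cdc37 (0.94). In NMO_Bl_mono replicate 3, Sgk3, Rnpep, Mdh2, Rest, Ifrd1, Por and Slfn4 were at 0 CPM and Zcchc7 at 1.54 CPM. Cdc37 was at 0 CPM in Nor_Bl_mono replicate 3, where Ccrl2 had 1 read. These low points raise r, so the genes named may share little else with the receptor.

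Other receptors of the chemokine family were few in these cells. Of 16 listed, 9 had any count and 4 were tested, 0 of them called in any comparison, with a median log2 fold change of 0.12 between brain and NMO blood. Receptors of other attractants were listed as well, and of 12 tested 0 were called, 9 had a fold change above 0 and the median was 1.52. Their summed level was 827 to 986 CPM in brain against 316 to 558 CPM in NMO blood. P2ry6, a receptor of UDP, was 65.7, 132 and 71.0 CPM in brain and 8.36, 7.03 and 0 CPM in NMO blood (log2 fold change 4.13, SE 1.92, adjusted p = 0.802). C5ar1, the receptor of the complement fragment C5a, was 176, 231 and 172 CPM in brain and 37.3, 35.5 and 0 CPM in NMO blood (2.99, SE 1.71, adjusted p = 0.860). Both were higher in every brain library than in every blood library of NMO mice, whereas Gpr183 (1.59, SE 1.89) and the chemerin receptor Cmklr1 (-0.27, SE 0.81, and 1.01 without NMO_Bl_mono replicate 3) overlapped.

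Of the ligands of the 8 receptors, 15 of 23 were tested, and between brain and NMO blood 1 was called higher (Ccl7) and 2 lower (Ccl5 and Ppbp), with a median log2 fold change of 0.26. Ccl7, a ligand of Ccr2 and Ccr1, was 140.5, 142 and 208 CPM in brain and 0 in each blood library, a level at least 484-fold above that of NMO blood (edgeR adjusted p = 0.0298). Its call was kept in 8 of 14 alternatives, with adjusted p-values from 1.33e-11 to 0.152, and was lost in the other 6, among them without any 1 of NMO_Bl_mono replicates 1 and 2 and the 3 brain libraries (0.0583, 0.0580, 0.0936, 0.0671 and 0.152 in that order). Ccl2, the main ligand of Ccr2, was 482, 471 and 480.2 CPM in brain, 8.08, 8.55 and 0 CPM in NMO blood and 29.2, 15.8 and 71.2 CPM in normal blood. Ccl2 rose against both blood groups, by 5.03 on the log2 scale (SE 0.95, adjusted p = 0.0347), and had an adjusted p of 0.0848 against NMO blood alone. The latter was called in 6 of 14 alternatives, with adjusted p-values from 1.14e-08 to 0.341, and without NMO_Bl_mono replicate 3 its log2 fold change was 5.85 (adjusted p = 0.00494). The call against both was kept in 10 of 15 alternatives and lost in 5, among them without Nor_Bl_mono replicate 3 and without each brain library in turn, with adjusted p-values up to 0.084. The 3 brain libraries each held transcripts of Ccr2 and of its ligands Ccl2 and Ccl7, all 3 of them above every blood library. Whether the same cells made receptor and ligands cannot be read from bulk libraries. The part of microglia and other brain cells in the level of Ccl2 and Ccl7 was not tested.

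Ccl5, a ligand of Ccr1, was 21.1, 129 and 140.3 CPM in brain, 1551.5, 1499.6 and 1389 CPM in NMO blood and 1928, 1184 and 1171 CPM in normal blood. It fell by 3.93 on the log2 scale against NMO blood (SE 0.57, adjusted p = 0.0103), a call kept in 13 of 15 alternatives with adjusted p-values from 6.92e-24 to 0.165, and lost in the fit of these 2 groups alone and with limma-voom. Ppbp, a platelet chemokine that Cxcr2 binds, was 333, 173 and 105 CPM in NMO blood and had 0, 1 and 0 reads in brain, at least 665-fold lower (adjusted p = 0.00311), a call kept in 13 of 14 alternatives with adjusted p-values from 9.88e-17 to 0.354. NK cell markers and platelet markers moved with these ligands. The NK list summed to 48.2 to 489.6 CPM in brain and 2290 to 3710 CPM in blood, with Nkg7 and Txk called lower out of 10 tested. The platelet list summed to 0 to 39.5 CPM in brain and 414 to 2715 CPM in blood, with Nrgn called lower out of 7. The part of NK cells and platelets in the fall of Ccl5 and Ppbp was not tested. Cxcl12, the ligand of Cxcr4, was 93.5, 0 and 747 CPM in brain and 3.90, 0 and 0 CPM in NMO blood (log2 fold change 7.77, SE 2.73, adjusted p = 0.802), so that 1 brain library held most of it. Cxcl2, a ligand of Cxcr2, had a log2 fold change of -0.91 (SE 1.55).

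**Figure D4:**
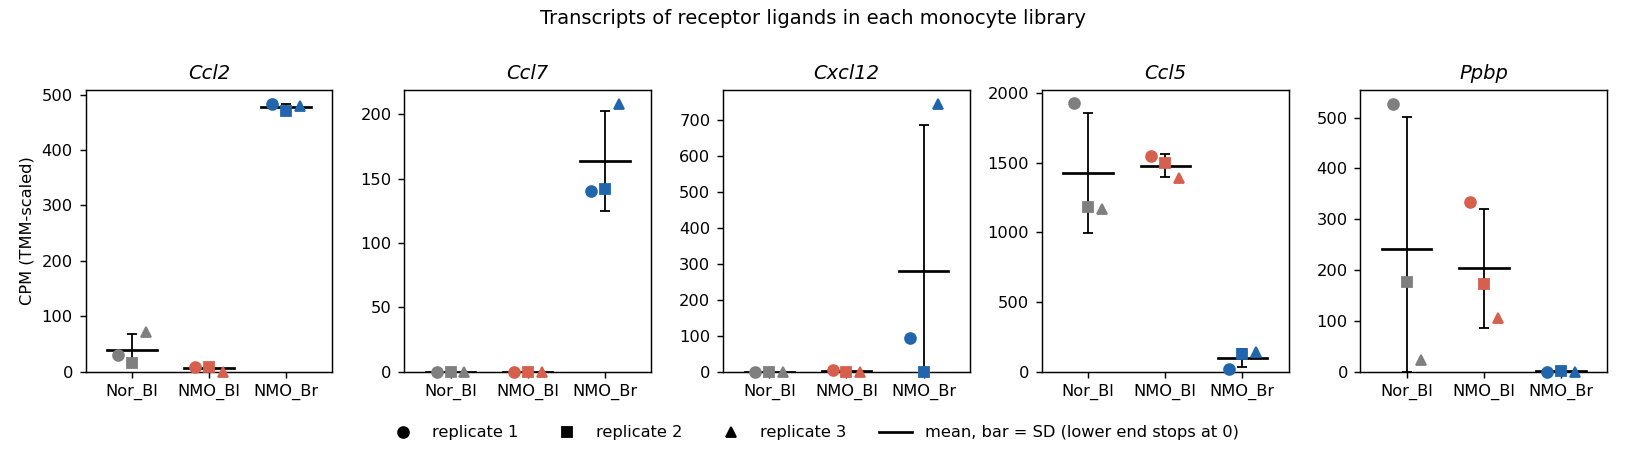
Level in CPM (vertical axis, linear, its own scale in each panel) of 5 ligands of the receptors in the 3 libraries of each group. Points are libraries, lines means and bars SD. Ccl2 and Ccl7 are high in the 3 brain libraries, Ccl5 and Ppbp in blood, and Cxcl12 mainly in 1 brain library.

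No gene on the lists of receptor signalling and receptor desensitization was called between brain and NMO blood. Of 25 signalling genes tested 0 were called, the median log2 fold change was -0.07, and 11 were above and 14 below 0. The largest values above 0 were those of Pik3cg (1.38, SE 2.04), Plcb2 (1.29, SE 1.70) and Lyn (0.85, SE 0.46), the PI3 kinase, the phospholipase and the Src family kinase downstream of Gi. The largest below 0 were those of the Rac exchange factors Prex1 (-1.51, SE 0.58, adjusted p = 0.802) and Dock2 (-0.98, SE 0.49) and of the GTPase Rac2 (-1.31, SE 0.64). Of 15 genes tested on the desensitization list, 0 were called and the median was -0.86, with 10 below 0. That list also held Nup85, which is not itself a desensitization gene. Rgs1, which shortens Gi signals of chemokine receptors, was 53.8, 118 and 286 CPM in brain and 692, 395 and 327 CPM in NMO blood, without overlap (-1.63, SE 0.59, adjusted p = 0.802). Nup85, also known as FROUNT for its binding to Ccr2, had a log2 fold change of -5.48 (SE 2.84), which is no measure of desensitization. Rgs18 had one of -1.63 (SE 2.42), while Arrb1 (0.71, SE 1.13), Rgs2 (0.49, SE 0.30) and Adrbk2 (0.45, SE 1.07) lay above 0.

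The remaining marker lists give the make-up of the libraries in which the receptors were read. Classical monocyte markers summed to 4399.9 to 8978 CPM in brain, 4440 to 7901 CPM in NMO blood and 5088 to 6861 CPM in normal blood, and non-classical markers to 868 to 1405 CPM, 761 to 1357 CPM and 1347 to 1692 CPM. Of the 10 genes tested in each list, 0 were called between brain and NMO blood. Against both blood groups 1 non-classical marker was called lower, Spn, which encodes CD43. It was 66.6, 55.4 and 54.0 CPM in brain and 238 to 407 CPM in the 6 blood libraries (log2 fold change -2.35, SE 0.46, adjusted p = 0.0423). Csf1r, carried by all monocytes, was 1356, 762 and 820.1 CPM in brain and 723, 564 and 166 CPM in NMO blood. Markers of astrocytes, neurons, oligodendrocytes and endothelium summed to 82.1 to 122 CPM in brain and 5.59 to 138 CPM in blood. Among them Pecam1 had means of 45.1 CPM in Nor_Bl_mono, 37.6 CPM in NMO_Bl_mono and 55.6 CPM in NMO_Br_mono. Cldn5, named after its values were seen, was 0 in blood and 0 to 59.7 CPM in brain. Against NMO_Bl_mono, 3 of the 12 markers were tested and 0 called, 2 above 0 and 1 below. The part of these cells in any receptor or ligand was not tested.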

How the data were processed

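RNA of sorted monocytes was made into QuantSeq 3′ libraries and read as single ends of 75 bases. Per the paper's methods, the authors aligned reads with Bowtie2 (mm10 in the submitters' processing notes) and used Bedtools coverage to count, for each gene, unique as well as multiple alignments, and the deposited values are these raw counts, 1 file for each of 9 libraries. Strand and annotation of the counting are not given in the sources used here, and neither are the tools' versions. Multiple alignments can add reads to genes that share sequence.

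The 23282 entries held 23238 symbols, since 35 were listed more than once, and 8796 had no count. For a repeated symbol, only its row with the highest total was used, and its other rows were left out. Counts were scaled by TMM and tested with edgeR 4.0.16 (R 4.3.3, filterByExpr, quasi-likelihood test, Benjamini-Hochberg over 10107 genes, threshold 0.05), with all 9 libraries in 1 fit of 3 groups. SE is the log2 fold change divided by the root of F. The floor is 3 counts per library, which covers counting error only. Library totals were 7584649 to 10419647 counts, TMM factors 0.801 to 1.46 and the common dispersion 2.87. The fitting of the models was tried on simulated counts, and the other steps were not. No 2 libraries held identical values.

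Members and gene lists were chosen with earlier results of these data known. The text names all members, sorting markers, list genes called in any comparison, for brain against NMO blood up to 3 genes each way per list with at least 50 CPM in the higher group, marker genes that reach 50 CPM, and the 3 genes most like a member. A receptor outside the 8 that meets this rule is not reported here, although list counts include it. Alternatives were RLE factors, library size alone, no filter, a minimum of 10 counts in each library, only the groups compared, a replicate block, DESeq2 1.42.0, limma-voom 3.58.1 with quality weights, and each library left out. Leaving out NMO_Bl_mono replicate 3 and NMO_Br_mono replicate 2 together was added after seeing the data. Gene ends were compared with blastn 2.17.0. Positions are from GENCODE M21, promoters from RefSeq (GRCm38.p6), where 7 of 8 members matched. Motifs were searched with Python 3.11.15 in the 250 bases before each start.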

Additional observations from a re-analysis of the deposited data

How the results depend on the processing

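The number of genes called between NMO_Br_mono and NMO_Bl_mono was 25, and became 110 without a filter, 16 with at least 10 counts in every library, 7 with only these groups, 336 with DESeq2, 51 with limma-voom and 61 without NMO_Bl_mono replicate 3 and NMO_Br_mono replicate 2, a choice made after seeing the data. Between the blood groups it was 0, and became 2 without a filter and 69 with DESeq2. Against Nor_Bl_mono it was 25, and became 115 without a filter and 366 with DESeq2. Against both blood groups it was 44, and became 181 without a filter, 495 with DESeq2 and 122 with limma-voom. The causes were not tested. There, 14 genes were higher and 30 lower, against 27 and 30 with RLE factors and 27 and 38 with library size alone. Against Nor_Bl_mono 3 were higher and 22 lower, against 8 and 28 with library size alone. Leaving out 1 library gave 15 to 36 genes against NMO_Bl_mono (15 without NMO_Br_mono replicate 3), 11 to 27 against Nor_Bl_mono (11 without Nor_Bl_mono replicate 3), 21 to 90 against both (21 without Nor_Bl_mono replicate 3, 27 without NMO_Br_mono replicate 3, 90 without NMO_Bl_mono replicate 3) and 0 between the blood groups, and 0 receptors in each.

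Receptors called were 0 except against Nor_Bl_mono without a filter (1, Ccr2, adjusted p = 0.00428) and with limma-voom (1, Ccr2, 0.0401), and against both blood groups without a filter (2, Ccr2 0.00287 and Ccr1 0.0444), with DESeq2 (1, Ccr1, 0.0194) and with limma-voom (1, Ccr2, 0.00766). Ccr2, Ccr1 and Cx3cr1 were higher in brain in every alternative run (15, 14 and 14 against NMO_Bl_mono). Only Ccr2 had 10 counts in every library.

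Signs turned elsewhere. Ccrl2 against Nor_Bl_mono was 0.092 with the replicate block. With limma-voom Cxcr4 was -0.37 against NMO_Bl_mono, -0.13 against Nor_Bl_mono, -0.25 against both and 0.23 between the blood groups, where Ccr1 was 2.64. Without both libraries Cxcr4 was -0.47, Cmklr1 0.98 and Adrbk2 -0.99 against NMO_Bl_mono. In that comparison Cmklr1 was 0.025 with the block and 0.98 with limma-voom, Cxcl2 1.16 and Rgs18 2.12 with the block, and Adrbk2 -1.69 with limma-voom. With 1 library left out, Cxcr4 ranged from -0.39 to 0.90 against NMO_Bl_mono, -0.22 to 0.50 against Nor_Bl_mono, -0.11 to 0.53 against both and -0.75 to 0.56 between the blood groups. There Ccrl2 ranged from -0.59 to 0.59, Ccr7 from -5.28 to 2.58 and Ccr1 from -1.10 to 0.070, and against NMO_Bl_mono Cmklr1 from -0.69 to 1.01, Rgs18 from -2.88 to 0.62 and Adrbk2 from -0.59 to 1.02.

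Same-numbered libraries deviated together weakly (9 pairs, r from -0.01 to 0.12, median 0.015, 1 over 0.1). The 18 pairs of unlike number had r from -0.096 to 0.030, with a median of -0.011. Replicate 1 had the lowest TMM factor in each group (0.801, 0.832 and 0.854). It also had the largest share of Rn45s reads (43.6%, 42.2% and 39.3% in Nor_Bl_mono, NMO_Bl_mono and NMO_Br_mono). What libraries of the same number share was not tested, and the main fit did not take the numbers as pairs. With the replicate block 22, 0, 22 and 34 genes were called against NMO_Bl_mono, between the blood groups, against Nor_Bl_mono and against both, and 0 receptors. The block ended the calls of Ccl7 against NMO_Bl_mono (adjusted p = 0.106) and of Ccl2 against both (0.0554). Genes under 3 counts in a library limit what the depth can show, as for Cxcr2 and Cxcr3.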
